A study of Mus musculus with 11 samples.

Results

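Snai1, Snai2, Twist1, Twist2, Zeb1, Zeb2 and Prrx1, transcription factors of the epithelial-mesenchymal transition (EMT), and Cdh2, Vim and Cdh11, markers of mesenchymal cells, were followed in cultured cell lines from OvTrpMyc mice. The genes were taken by name, with earlier results of these data known, and all 10 were among the 28284 genes of the count table. The 11 lines came from 7 mice, with 1 poly(A) RNA sequencing library each: 7 lines from an ovary (named ROV or LOV after the mouse number), 2 from a uterus (F319 and F333), 1 from a splenic tumor (F326), and 1 from a peritoneal tumor (F361). All 11 lines share the genotype Ovgp1-Trp53-R270H-Myc, in which the promoter of Ovgp1, an oviduct secretory gene, drives mutant p53 and Myc from a single transgene at the Trp53 locus, and heterozygous mice were used. Per the study's methods, the peritoneal tumor line did not express the mutant p53. None was treated, and all grew in RPMI 1640.

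Each line is a single culture of cells that grew out of minced tissue, so a line and its library cannot be told apart, and no wild-type line was analysed here. Of the mice, 4 (F318, F319, F326 and F364) are represented by 2 lines, which are not independent. All lines, those from a uterus included, carry the label ovarian cancer. In bulk RNA, fewer cells of a type and less RNA per cell cannot be told apart. Every p-value below measures the spread between lines, and the intervals of single libraries cover counting error only.

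In the EMT, epithelial cells give up their junctions and polarity and gain the motility of mesenchymal cells. Snail (Snai1, Snai2) and Zeb (Zeb1, Zeb2) proteins are zinc finger repressors that bind E-box sequences and silence epithelial genes such as Cdh1, the gene of E-cadherin. Twist1 and Twist2 are basic helix-loop-helix proteins, and Prrx1 is a homeobox factor of limb and craniofacial mesenchyme. Cdh2 (N-cadherin) and Cdh11 (OB-cadherin) are adhesion molecules of mesenchymal cells, and Vim encodes the intermediate filament vimentin. Carcinoma cells of the ovary often hold both epithelial and mesenchymal features, and vimentin is also a protein of ordinary ovarian stroma.

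Totals per library lay between 13580525 and 27044598 counts, so that the floor of detection, set at 3 counts, corresponds to 0.111 to 0.221 CPM (counts per 1000000 of the library total). The libraries, numbered 1 to 11 in their labels, fell into 2 sets. In libraries 1 to 7, 8.0% to 15.5% of the counts lay on 33 skeletal muscle fiber genes, against 0.166% to 1.33% in libraries 8 to 11. The sum of 4 Y-linked genes was 128 to 174 CPM in the first set and 1.75 to 19.2 CPM in the second. Y-linked transcripts go against a label of ovary or uterus, and they were highest in libraries 1 to 7. Both uterus lines are in libraries 8 to 11 and both tumor lines in libraries 1 to 7, so values inside a set are given beside the organ comparisons.

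Of the 24 epithelial markers listed, 23 were in the table, and 6 to 19 of them were above the floor in a line. Cdh1 was at 0 to 3.68 CPM, and Epcam, an epithelial adhesion gene, at 0 in 6 of the 11 lines. The summed level of the 23 genes ranged from 10.4 CPM in the F326 splenic tumor to 172 CPM in F319 ROV, where the keratin genes Krt8 (52.7 CPM) and Krt18 (67.9 CPM) were highest. The median log2(CPM + 1) of the 23 genes was 0 to 0.86, so a typical epithelial marker lay below 1 CPM in every line. At the same floor that 6 to 19 of the 23 epithelial markers passed, 9 or all of the 10 transition genes were counted in each line. Neither count is scaled for the length of the genes. The label names an ovarian cancer without saying whether its cells are epithelial.

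The RefSeq table used here has a promoter window, from 250 bases before a transcript's start to 50 after it, for 6 of the 10 genes (Snai1, Twist1, Twist2, Zeb2, Prrx1 and Vim). These windows are shown because all 6 genes were called higher in libraries 8 to 11 in the comparison of library sets below. Windows of GRCm38.p6 were searched on both strands for the E-boxes CAGGTG and CACGTG, the GC box GGGCGG, the AP-1 motif TGANTCA, and the TATA box TATAAA. No match of one motif overlaps a match of another in the windows of these genes. The windows printed are those of the 4 genes with a single window that holds a match, read on the strand of the gene, with each match in capitals (on the opposite strand the letters appear reversed and complemented).
Snai1, chr2:167537945-167538244, + strand: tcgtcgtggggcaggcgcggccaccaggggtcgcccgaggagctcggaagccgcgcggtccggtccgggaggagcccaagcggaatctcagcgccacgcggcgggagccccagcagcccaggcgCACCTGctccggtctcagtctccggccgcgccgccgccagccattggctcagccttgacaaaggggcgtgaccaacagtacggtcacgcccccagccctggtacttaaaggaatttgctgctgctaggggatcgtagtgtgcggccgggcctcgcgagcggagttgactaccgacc
Twist1, chr12:33957421-33957720, + strand: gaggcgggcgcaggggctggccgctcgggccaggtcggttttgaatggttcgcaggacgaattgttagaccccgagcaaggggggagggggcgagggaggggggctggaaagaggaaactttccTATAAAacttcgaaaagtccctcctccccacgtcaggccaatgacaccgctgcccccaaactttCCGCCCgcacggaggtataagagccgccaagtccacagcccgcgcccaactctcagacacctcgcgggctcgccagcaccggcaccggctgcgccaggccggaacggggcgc
Twist2, chr1:91801211-91801510, + strand: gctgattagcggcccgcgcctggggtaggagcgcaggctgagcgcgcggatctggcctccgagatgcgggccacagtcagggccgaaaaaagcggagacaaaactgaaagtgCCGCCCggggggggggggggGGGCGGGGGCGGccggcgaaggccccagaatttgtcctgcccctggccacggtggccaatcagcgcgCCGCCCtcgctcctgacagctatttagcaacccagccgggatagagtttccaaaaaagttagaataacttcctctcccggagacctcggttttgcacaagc
Vim, chr2:13574061-13574360, + strand: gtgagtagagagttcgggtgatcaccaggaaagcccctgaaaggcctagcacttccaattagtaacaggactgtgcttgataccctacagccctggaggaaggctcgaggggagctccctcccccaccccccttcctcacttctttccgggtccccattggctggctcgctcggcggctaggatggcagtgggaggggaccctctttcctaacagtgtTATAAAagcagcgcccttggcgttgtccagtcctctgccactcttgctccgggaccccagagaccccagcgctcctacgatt

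The Snai1 window holds 1 CAGGTG match, 126 bases before the start, a sequence of the kind that Snail proteins bind. CAGGTG occurs in 20.2% of the 32851 mouse windows. Twist1 holds a TATAAA match 126 bases before the start and a GGGCGG match 62 bases before it, whereas Twist2 holds 4 GGGCGG matches and no TATAAA. Vim holds TATAAA 32 bases before its start. TATAAA occurs in 13.6% and GGGCGG in 35.7% of all windows. No CACGTG, found in 7.15% of all windows, was in a window of these genes, and TGANTCA, found in 7.81%, was in 1 of the 4 windows of Zeb2, with 2 matches. GGGCGG was in 3 of those 4 windows. The Prrx1 window holds none of the 5. The GC content was 70.0% for Snai1, 66.0% for Twist1, 64.7% for Twist2, 59.3% for Vim and 47.7% for Prrx1, against a median of 52.7% over all windows. A match describes letters only.

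The genes' positions on GRCm38, from GENCODE M21, are chr2:167538195-167542814 for Snai1, chr16:14705852-14709385 for Snai2, chr12:33957671-33959829 for Twist1, chr1:91801461-91848028 for Twist2, chr18:5591860-5775467 for Zeb1, chr2:44983632-45117395 for Zeb2, chr1:163245119-163313710 for Prrx1, chr18:16588877-16809246 for Cdh2, chr2:13573927-13582826 for Vim, and chr8:102632095-102785642 for Cdh11. Snai1 and Snai2, Twist1 and Twist2, and Zeb1 and Zeb2 share no run of identical transcript sequence over 23 bases, and Cdh2 and Cdh11 none over 15, runs shorter than a read. Twist2 shares 1477 exon bases with the antisense gene Gm29100, which held at most 17.6% of the counts of both, and Zeb2 and Zeb1 share fewer bases with Zeb2os and Gm10125, which held at most 1.40% and 2.45%. The strand setting of the counting is not given in the sources used here.

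Snai1 varied over 2 orders of magnitude between lines. In libraries 1 to 7 it ran from 0.380 CPM in F364 ROV (6 counts) over a median of 3.67 to 33.7 CPM in F318 ROV, and in libraries 8 to 11 it was at 69.8 (F339 ROV), 93.1 (F318 LOV), 56.2 (F319 uterus) and 34.5 CPM (F333 uterus). Every library from 8 to 11 was above every library from 1 to 7, but the lowest of them, F333 uterus, and F318 ROV had overlapping 95% Wilson intervals. Snai2, which encodes Slug, ran from 1.34 CPM in F326 ROV over a median of 4.97 to 25.7 CPM in F318 ROV, and was at 122 CPM in F339 ROV, 103 in F318 LOV, 94.95 in F319 uterus and 73.1 in F333 uterus. The sets were apart for Snai2 as well, with a wider gap than for Snai1.

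**Figure D1:**
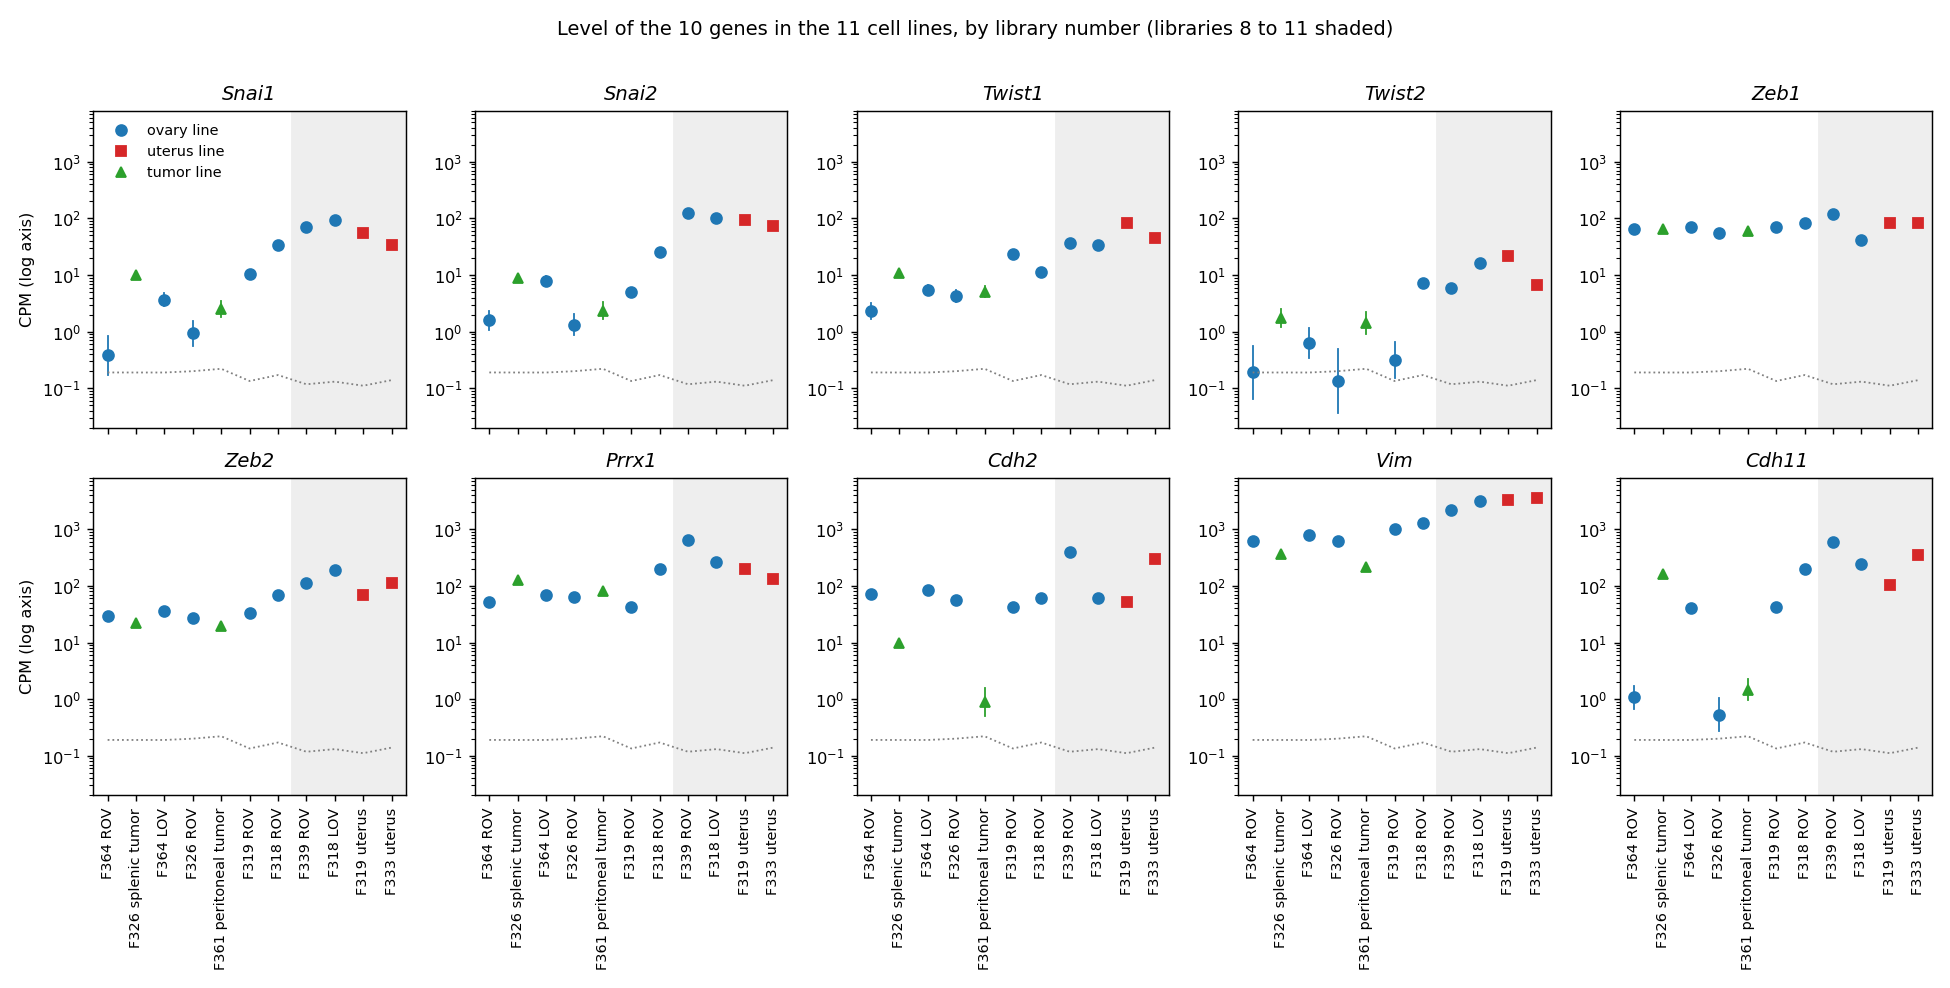
CPM (log axis) of the 10 genes in the 11 lines, ordered by library number, with ovary (circles), uterus (squares) and tumor (triangles) lines, 95% Wilson intervals as vertical bars, and the floor of 3 counts dotted. Snai1, Snai2, Twist1 and Vim are higher in every shaded library (8 to 11) than in any other, Zeb1 lies near one level in libraries 1 to 7, and Cdh11 falls near 1 CPM in 3 of the unshaded lines.

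Twist1 ran from 2.28 CPM in F364 ROV over a median of 5.51 to 23.5 CPM in F319 ROV in libraries 1 to 7, and was at 37.2 CPM in F339 ROV, 33.4 in F318 LOV, 81.4 in F319 uterus and 45.2 in F333 uterus. The 2 uterus lines held the highest values of all 11. Twist2 was the scarcest of the 10 genes per length in 8 lines. Its counts were 2 in F326 ROV and 3 in F364 ROV, at or under the floor, it reached 7.14 CPM in F318 ROV, and it was at 5.999 CPM in F339 ROV, 16.3 in F318 LOV, 21.3 in F319 uterus and 6.78 in F333 uterus. F318 ROV was above F339 ROV and F333 uterus, so the library sets overlapped for Twist2.

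Zeb1 was the steadiest of the 10 genes over all 11 lines. It lay between 55.5 CPM (F326 ROV) and 82.4 CPM (F318 ROV) in libraries 1 to 7, with a median of 65.6, and at 118 CPM in F339 ROV, 42.3 in F318 LOV, 83.9 in F319 uterus and 81.7 in F333 uterus. The highest and the lowest value of all 11 were both in libraries 8 to 11, in 2 ovary lines. Zeb2, whose product is also called SIP1, ran from 19.9 CPM in the F361 peritoneal tumor over a median of 29.5 to 70.4 CPM in F318 ROV, and was at 113 CPM in F339 ROV, 194 in F318 LOV, 70.3 in F319 uterus and 113 in F333 uterus. F318 LOV thus had the highest Zeb2 and the lowest Zeb1 of the 11 lines. F318 ROV and F319 uterus were almost level for Zeb2.

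Prrx1 ran from 43.0 CPM in F319 ROV over a median of 69.7 to 201 CPM in F318 ROV, and was at 653 CPM in F339 ROV, 260 in F318 LOV, 199.6 in F319 uterus and 135 in F333 uterus. F339 ROV stood above the rest, and F318 ROV was level with F319 uterus and above F333 uterus. Vim was the most abundant of the 10 per kb of exon in each of the 11 lines, at 45.2 to 739 CPM per kb. In CPM it ran from 214 in the F361 peritoneal tumor over a median of 629 to 1280 in F318 ROV, and was at 2179 in F339 ROV, 3202 in F318 LOV, 3227 in F319 uterus and 3504 in F333 uterus. The lowest Vim of libraries 8 to 11 was above the highest of libraries 1 to 7.

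The cadherins differed most between lines of one library set. Cdh2 was at 42.3 to 85.7 CPM in the 5 ovary lines of libraries 1 to 7, with a median of 60.6, but at 9.62 CPM in the F326 splenic tumor and 0.884 CPM (12 counts, 95% Wilson interval 0.505 to 1.54) in the F361 peritoneal tumor. In libraries 8 to 11 it was at 400 (F339 ROV), 60.6 (F318 LOV), 52.2 (F319 uterus) and 293 CPM (F333 uterus). Both tumor lines were below all ovary lines, and libraries 8 to 11 split into 2 high lines and 2 at the level of the ovary lines of libraries 1 to 7.

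Cdh11 was at 0.534 CPM (8 counts) in F326 ROV, 1.08 CPM (17 counts) in F364 ROV and 1.47 CPM (20 counts) in the F361 peritoneal tumor. It was at 39.99 CPM in F364 LOV, 41.7 in F319 ROV, 162 in the F326 splenic tumor and 201 in F318 ROV, and at 599.5 CPM in F339 ROV, 243 in F318 LOV, 105 in F319 uterus and 345 in F333 uterus. Libraries 1 to 7 thus held 3 lines near the floor and 2 lines, the F326 splenic tumor and F318 ROV, that reached into the range of libraries 8 to 11. F361 was the one line with both cadherins under 2 CPM, and F326 ROV and F364 ROV had Cdh2 with almost no Cdh11.

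**Figure D2:**
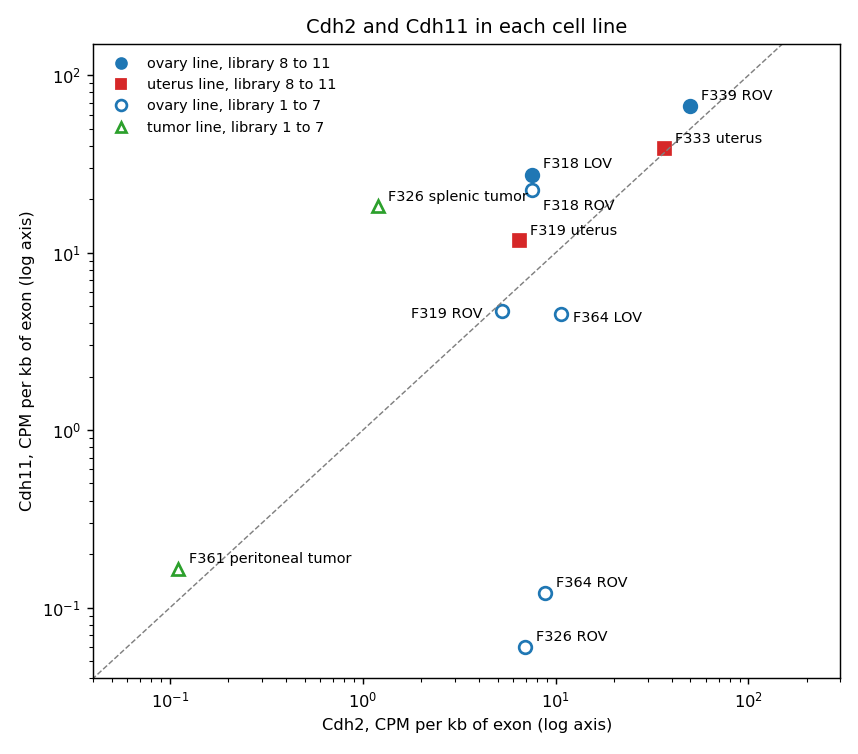
Cdh11 against Cdh2 (CPM per kb of exon, log axes), 1 point per line, with equal levels along the dashed line and filled points for libraries 8 to 11. F326 ROV and F364 ROV lie far below the line, the F326 splenic tumor far above it, and the F361 peritoneal tumor at the low end of both.

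As a share of the 2 cadherins per length, Cdh2 ranged from 6.14% in the F326 splenic tumor to 99.1% in F326 ROV, lines of the same mouse, and it was the more abundant in 4 of 11 lines. Within the other related pairs the shares moved less. Twist1 exceeded Twist2 per length in 11 of 11 lines, with 75.6% to 99.3% of the pair. Zeb1 exceeded Zeb2 in 10 of 11 lines, with 58.3% to 85.3% of the pair, and F318 LOV was the exception at 29.7%. Snai2 exceeded Snai1 in 6 of 11 lines, with a range of 27.6% to 76.97%. The Zeb1 share was 69.5% to 85.3% in libraries 1 to 7 and 29.7% to 69.9% in libraries 8 to 11.

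**Figure D3:**
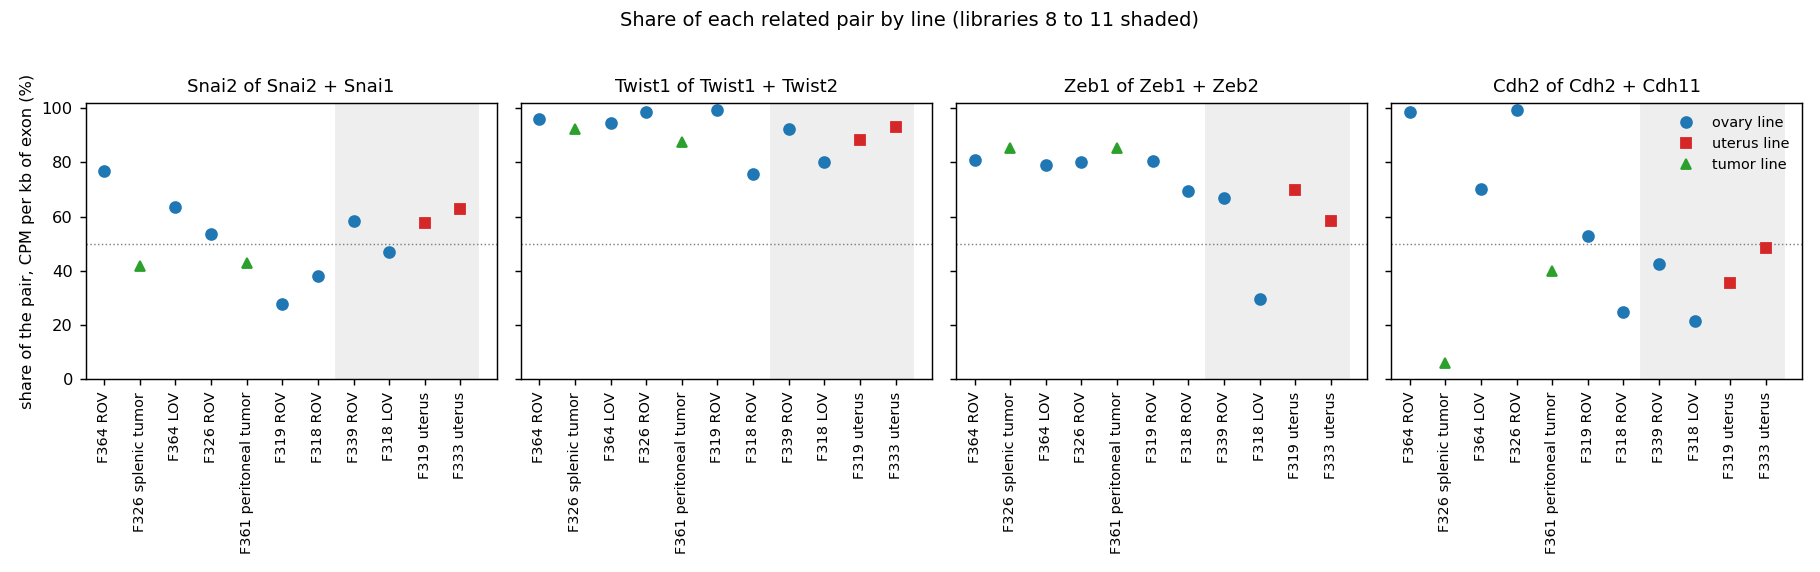
Share of the first gene in 4 related pairs (percent of the pair's CPM per kb of exon) by line, with 50% dotted and libraries 8 to 11 shaded. Twist1 holds over 75% in each line, Zeb1 over 50% in all but F318 LOV, and the cadherin share covers nearly the whole range.

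The spread of each gene between lines was compared with that of 14665 genes, as the SD of log2(CPM + 1) within a library set. Within libraries 1 to 7 the SD was 3.05 for Cdh11, 2.02 for Cdh2 and 1.63 for Snai1, against a median of 0.44 over the 14665 genes, and 98.6% or more of them had a smaller SD than each of these 3. Zeb1, with an SD of 0.18, was at the other end, where 4.05% of the genes had a smaller SD, but within libraries 8 to 11 its SD was 0.61, and 76.8% of the genes had a smaller one. In that set the SD was 1.51 for Cdh2 and 1.05 for Cdh11, against 0.31 for Snai2 and for Vim and a median of 0.37. Adjacent lines in the order of levels had overlapping Wilson intervals in 7 of 10 neighbouring places for Twist2, Zeb1 and Zeb2, and in 2 of 10 for Vim, the best counted of the 10.

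The first comparison asked whether the organ of origin separates the genes. No gene of the 17446 tested (0%) passed an adjusted p of 0.05 between the 2 uterus and the 7 ovary lines in edgeR's quasi-likelihood test, and none of the 10 did. Of all genes, 2308 (13.2%) had an unadjusted p under 0.05, against 1 of the 10, Twist1. DESeq2 called 1293 genes and none of the 10. Twist1 had the largest log2 fold change of the 10, 1.83 ± 0.77 (SE, uterus minus ovary; n = 2 and 7; adjusted p = 0.359), with means of 63.3 and 16.8 CPM. Vim differed by 1.19 ± 0.55 (edgeR adjusted p = 0.359), with means of 3366 and 1394 CPM.

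Twist1 and Vim were the 2 genes with both uterus lines above all 7 ovary lines, where 5.04% of all genes tested were higher in this way. Inside libraries 8 to 11, with 2 uterus and 2 ovary lines, the difference was 0.83 ± 0.36 for Twist1 and 0.34 ± 0.38 for Vim (edgeR, adjusted p = 0.9998 for both). For Snai1, Snai2, Zeb2, Cdh2 and Cdh11 the sign turned there: the uterus minus ovary value was 0.58 for Snai1 over all 9 lines and -0.85 within libraries 8 to 11. No gene was called within libraries 8 to 11, and 522 genes had an unadjusted p under 0.05. With the mouse as a block, where F319 alone has a line on both sides, 2 of the 10 (Twist2 and Prrx1) and 8.6% of all genes had an unadjusted p under 0.05, and none was called by edgeR.

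The lines from visible tumors were compared with the ovary lines to see whether a tumor outside the gynecologic tract goes with other levels. Again none of 16768 genes (0%) was called by edgeR, 1371 (8.18%) had an unadjusted p under 0.05, and DESeq2 called 260. None of the 10 was called by edgeR, 2 (Cdh2 and Vim) had an unadjusted p under 0.05, and DESeq2 called 1, Cdh2. The log2 fold change of Cdh2, tumor minus ovary, was -4.09 ± 1.22 (SE, n = 2 and 7; edgeR adjusted p = 0.561, DESeq2 adjusted p = 0.00327), with means of 5.25 and 111 CPM. Within libraries 1 to 7 it was -3.47 ± 0.86 (edgeR adjusted p = 0.313). Without the F361 line it was -3.23 and without the F326 splenic tumor -6.62.

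Cdh2, Vim and Zeb2 were lower in both tumor lines than in all 7 ovary lines, where 11.2% of all genes tested were lower in this way. None of the 10 was higher in both, as 3.37% of all genes were. Vim differed by -1.94 ± 0.68 and Zeb2 by -1.42 ± 0.71 (edgeR adjusted p = 0.561 for both), and by -1.43 ± 0.36 and -0.73 ± 0.34 within libraries 1 to 7 (adjusted p = 0.319 and 0.515). In the splenic and the peritoneal tumor Vim was at 363.95 and 214 CPM, against 628 or more in every ovary line. Zeb1 differed by 0.05 ± 0.34, a sign that turned to -0.20 when library totals alone set the scale. Snai1 and Snai2 had tumor minus ovary values of -1.86 ± 1.74 and -2.32 ± 1.74, and of -0.35 ± 1.38 and -0.30 ± 1.07 within libraries 1 to 7. With the mouse as a block, where F326 alone has a line on both sides, they were at 3.47 ± 1.71 and 2.80 ± 1.54, 2 of the 10 (Cdh2 and Cdh11) and 3.89% of all genes had an unadjusted p under 0.05, and none was called by edgeR.

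**Figure D4:**
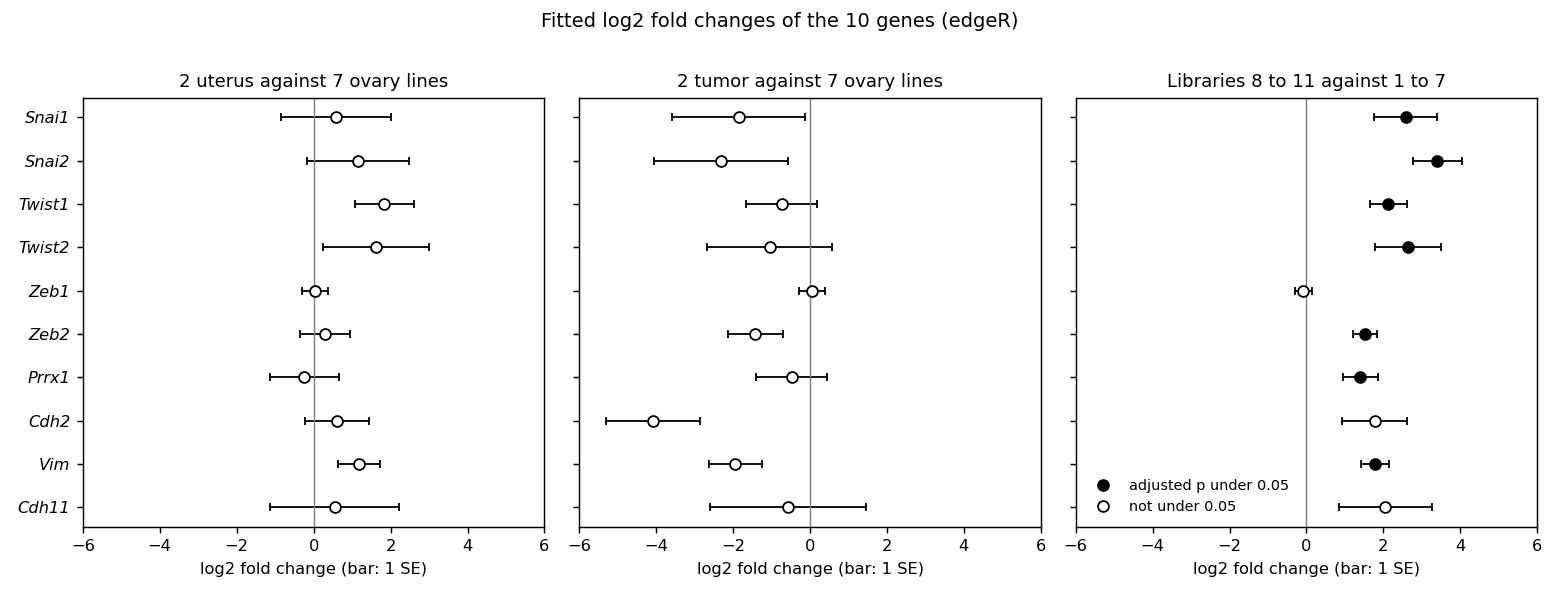
Log2 fold changes of the 10 genes with 1 SE (edgeR), for uterus minus ovary lines, tumor minus ovary lines, and libraries 8 to 11 minus 1 to 7. Filled points have an adjusted p under 0.05, which none reached in the organ comparisons and 7 did between the library sets.

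Between the library sets 7 of the 10 genes were higher in libraries 8 to 11, beside changes in much of the transcriptome. Of 15954 genes, 9337 (58.5%) passed an adjusted p of 0.05 between libraries 8 to 11 and 1 to 7, 4568 higher (28.6%) and 4769 lower (29.9%). With library totals alone as the scale, 6080 were higher and 3734 lower, and the median over all genes moved from 0.03 to 0.40 on the log2 scale. None of the 10 was lower, their median log2 fold change was 1.92, and the same 7 had an unadjusted p under 0.05, as 63.2% of all genes did. The 7 were Snai1 (2.58 ± 0.82), Snai2 (3.40 ± 0.63), Twist1 (2.13 ± 0.49), Twist2 (2.63 ± 0.85), Zeb2 (1.52 ± 0.31), Prrx1 (1.40 ± 0.45) and Vim (1.78 ± 0.37), with SE, n = 4 and 7, and edgeR adjusted p from 0.000865 (Snai2) to 0.0187 (Twist2).

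Cdh2 (1.77 ± 0.84, edgeR adjusted p = 0.0869) and Cdh11 (2.05 ± 1.20, adjusted p = 0.160) did not pass, and Cdh2 did with library totals alone (adjusted p = 0.0444), where 61.5% of all genes were called. Zeb1 differed by -0.08 ± 0.23 (adjusted p = 0.769), and by 0.28 with library totals alone. Snai1, Snai2, Twist1 and Vim were higher in all 4 libraries than in all 7, where 26.1% of all genes tested were higher in this way. In the ovary lines alone (2 against 5), Snai2, Zeb2, Prrx1 and Vim were called, 4 of the 10, beside 40.7% of all genes. With 1 line per mouse 6 were, Prrx1 being lost, beside 49.6% of all genes. Without F339 ROV the value of Prrx1 was 0.79 (adjusted p = 0.122), and without F319 uterus that of Twist2 was 2.30 (adjusted p = 0.0547).

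With the mouse as a block, a fit in which F318 and F319 alone have lines on both sides, none of the 10 was called (edgeR adjusted p from 0.0574 for Zeb2 to 0.949 for Cdh2). Of all genes 3028 (19%) were called, 869 higher and 2159 lower. An unadjusted p under 0.05 remained for 4 of the 10, Snai2 (2.89 ± 1.14), Twist1 (1.45 ± 0.59), Zeb2 (1.04 ± 0.31) and Vim (1.26 ± 0.39), and for 37.3% of all genes. The other 3 of the 7 were at 1.72 ± 1.18 (Snai1), 3.22 ± 1.65 (Twist2) and 1.06 ± 0.56 (Prrx1), and Cdh2 was at -0.07 ± 0.70.

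Markers of other cells moved with the sets too, in the opposite direction. Of 32 muscle fiber genes tested all 32 were lower in libraries 8 to 11, as were 6 of 8 endothelial, 6 of 8 macrophage and blood cell, 5 of 6 adipocyte and 4 of 4 Y-linked markers. Of all genes tested, 29.9% were lower. The muscle and Y-linked differences were known from these data before the split was chosen, so their counts describe the sets and test nothing. In the first and the second set, the endothelial list summed to 173 to 461 and 2.62 to 233 CPM, the macrophage and blood cell list to 44.4 to 109 and 8.47 to 18.6 CPM, and the adipocyte list to 158 to 360 and 10.2 to 98.7 CPM. F339 ROV held the 233 CPM of endothelial markers, and the other libraries from 8 to 11 held at most 20.1 CPM. Emcn (154 CPM) and Cdh5 (61.9 CPM) made up most of that sum, and Tie1, Cldn5, Kdr and Tek were at 0.314 to 1.37 CPM in F339 ROV, below every library from 1 to 7. Pecam1, at 7.84 CPM, was below them too, whereas Erg, at 5.69 CPM, lay inside their range of 4.24 to 16.1 CPM. Both were higher in F339 ROV than in any other library from 8 to 11. In libraries 8 to 11 Itgam was at 0 in 3 of the 4 lines, Ptprc, Adipoq and Plin1 in 2 each, and Emcn in F318 LOV, while Csf1r and Pparg were above the floor in all 4. F318 ROV, with the lowest muscle share of libraries 1 to 7, had the highest Snai1, Snai2, Twist2, Zeb1, Zeb2, Prrx1, Vim and Cdh11 of that set. Twist1 was highest there in F319 ROV (23.5 against 11.4 CPM in F318 ROV) and Cdh2 in F364 LOV (85.7 against 60.6 CPM). The part of these cells or counts in the differences was not tested.

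Pairs of lines from one mouse hold the mouse constant, and 2 of the 4 pairs lie inside a library set. Each pair is 1 library against 1, so ratios are given with exact binomial 95% intervals of counting error and without a test. In mouse F364, LOV against ROV, Cdh11 was 37.1-fold higher (23.0 to 64.1), Snai1 9.65-fold (4.17 to 27.4) and Snai2 5.03-fold (3.26 to 8.07). The other 7 genes differed by less than 4-fold, with Zeb1 at 1.10-fold, Cdh2 at 1.20-fold and Vim at 1.28-fold. Past 4-fold in either direction, with 0.1 CPM added to each value, lay 3 of the 10 genes and 3.90% of all genes with at least 10 counts in 1 of the lines.

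In mouse F326, splenic tumor against ROV, both lines of libraries 1 to 7, the cadherins went opposite ways. Cdh11 was 304-fold higher in the tumor line (154 to 704) and Cdh2 5.84-fold lower (4.91 to 6.99). Snai1 was 10.7-fold (6.19 to 20.02) and Snai2 6.73-fold (4.20 to 11.4) higher, Prrx1 2.06-fold higher and Vim 1.72-fold lower. Twist2, with 28 against 2 counts, had a ratio of 13.3 (3.35 to 115). By the same count, 5 of the 10 genes and 11.8% of all genes lay past 4-fold.

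The pairs of F319 and F318 each cross the library sets. In F319, uterus against ROV, Twist2 was 68.1-fold (32.8 to 170), Snai2 19.1-fold (15.8 to 23.3), Snai1 5.39-fold and Prrx1 4.64-fold higher, while Zeb1 was at 1.20-fold and Cdh2 at 1.23-fold. Zeb2 was 2.11-fold higher (1.93 to 2.30). In F318, LOV against ROV, Snai2 was 4.01-fold (3.62 to 4.45) and Snai1 and Zeb2 2.76-fold higher, Cdh2 was level, with a ratio of 1.0002 (0.923 to 1.08), and Zeb1 was 1.95-fold lower (1.80 to 2.12). By the same count, 4 of the 10 genes and 26.6% of all genes lay past 4-fold in F319, and 0 of the 10 and 19.5% of all genes in F318.

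**Figure D5:**
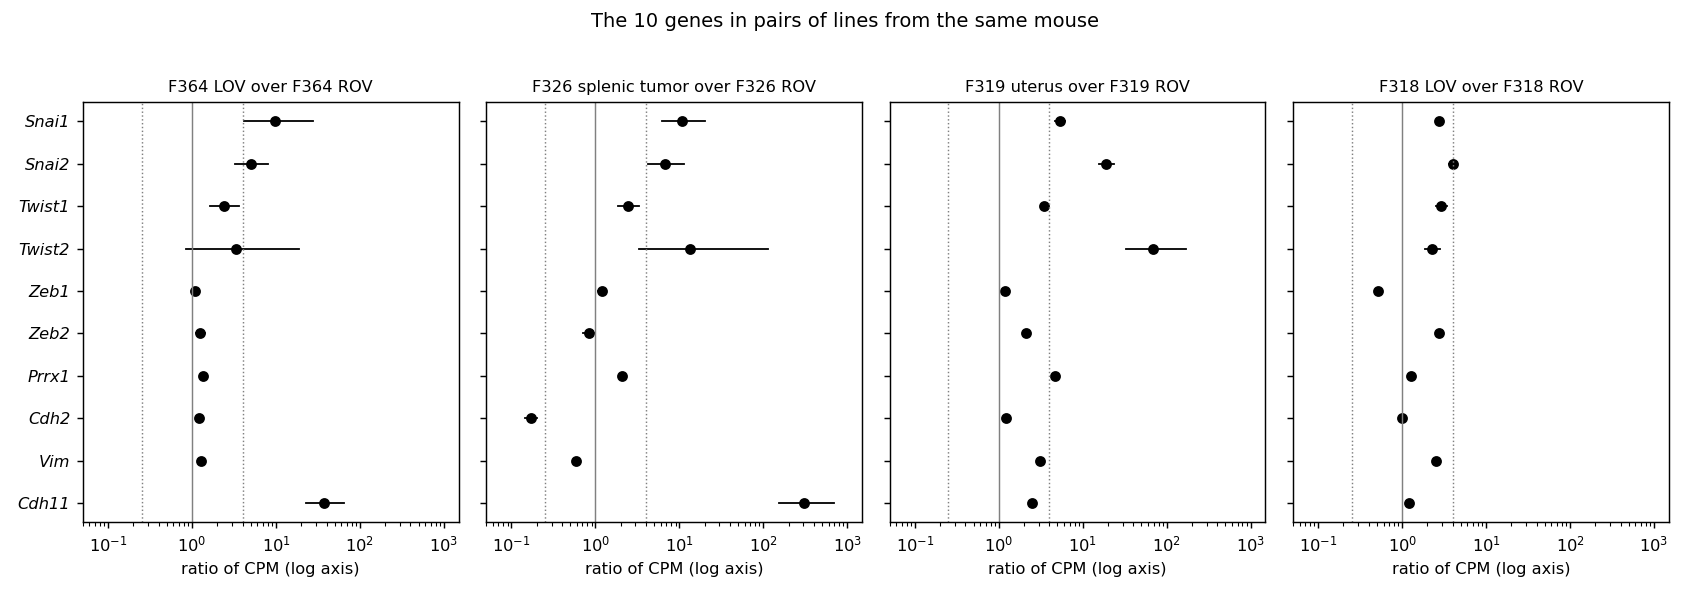
Ratio of CPM (log axis) between the 2 lines of each of 4 mice for the 10 genes, with exact 95% intervals of counting error, equality as a solid line and 4-fold in either direction dotted. Which line is the numerator was chosen for display, so the side of a point has no common meaning across pairs. Snai1 and Snai2 are both higher in F364 LOV, the F326 splenic tumor, F319 uterus and F318 LOV than in the other line of the mouse. Zeb1 stays within 2-fold, and Cdh11 and Cdh2 point opposite ways in F326.

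With log2(CPM + 1) centred within each library set, Pearson's r over the 11 lines was highest among the 10 genes for Snai1 and Snai2, at 0.91, followed by 0.91 for Snai2 and Cdh11 and 0.85 for Snai1 and Cdh11. The lowest was -0.37, for Twist2 and Cdh2. Within libraries 1 to 7 alone r was 0.92, 0.93 and 0.91 for these 3 pairs, and the highest was 0.94, for Twist2 and Prrx1, which were at 0.50 over the 11 lines. These are descriptions over lines that share mice, library set and totals.

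Among 4254 candidate genes with a mean of at least 5 CPM, the gene most like each of the 10 was named by the same measure. It was Lhfpl2 for Snai2 (r = 0.99), Clic1, an intracellular chloride channel gene, for Vim (0.98), Plod2, a collagen lysyl hydroxylase, for Cdh11 (0.96), and Cttnbp2nl for Cdh2 (0.95). Rcn1, which encodes a calcium-binding protein of the endoplasmic reticulum, was most like Snai1 (0.94), Xpot, a tRNA exporter gene, most like Zeb2 (0.94), and Adcy2, an adenylyl cyclase gene, most like Zeb1 (0.94). Shox2, a homeobox gene, was most like Twist2 (0.91), Zfp354c most like Prrx1 (0.90), and Grk5, a receptor kinase gene, most like Twist1 (0.90). Col5a1, a fibrillar collagen gene, stood in the first 3 for both Snai1 (0.94) and Cdh11 (0.95). Within libraries 8 to 11 alone r was 0.36 for Snai1 with Col5a1, 0.63 for Snai1 with Rcn1 and 0.93 for Cdh11 with Col5a1. The genes named were picked for a high r out of 4254 candidates, over few lines that share mice, and were not tested.

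The partners through which these factors act were read from the fit between library sets without a block, beside the 28.6% of all genes that were higher and the 29.9% that were lower. With the mouse as a block fewer were called by edgeR: 2 of the 20 corepressors and partners, 1 of 13 stability genes, 1 of 12 TGF-beta genes, 4 of 18 other mesenchymal genes, 1 of 12 cadherin and catenin genes, and 2 of 9 epithelial markers, where 19% of all genes were called. The shares of the first 3 lists and of the cadherins and catenins were below that of all genes, and those of the other mesenchymal genes and the epithelial markers were near it. Of 20 corepressors and dimer partners, 15 were higher, 2 lower and 3 not called, with a median of 1.15. The E proteins Tcf3 (1.15 ± 0.21), Tcf4 (1.16 ± 0.38) and Tcf12 (1.22 ± 0.25), which pair with Twist proteins, were all higher (edgeR adjusted p = 0.000684, 0.0195 and 0.00147). Of their inhibitors Id2 (1.35 ± 0.42) and Id3 (1.42 ± 0.33) were higher, and Id1 (-0.12 ± 0.39) and Id4 (0.42 ± 1.19) did not pass. Of the C-terminal binding proteins that Zeb proteins recruit, Ctbp2 was higher (0.95 ± 0.20) and Ctbp1 lower (-0.71 ± 0.19), from means of 62.6 against 25.6 and 296 against 375 CPM.

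Suz12 and Ezh2, of Polycomb repressive complex 2, and the deacetylase genes Hdac1 and Hdac2 were also higher, by 1.48 ± 0.19, 1.80 ± 0.31, 1.76 ± 0.26 and 1.07 ± 0.15. The remaining 5 higher, Kdm1a, Rcor1, Sin3a, Ajuba and Wtip, lay between 0.82 (Sin3a) and 1.53 (Rcor1). Limd1, a LIM protein gene, was the other one lower (-0.70 ± 0.20). Of 13 genes that set the stability of Snail, Twist and Zeb proteins, 3 were higher and none lower: the F-box gene Fbxo11 (1.22 ± 0.15) and the deubiquitinase genes Usp27x (1.58 ± 0.36) and Usp9x (1.16 ± 0.19). Gsk3b, the kinase that marks Snail for destruction, had 0.42 ± 0.29 and did not pass.

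Of 12 genes of TGF-beta signaling, an inducer of EMT, 6 were higher, 1 lower and 5 not called, with a median of 0.76. The ligand genes Tgfb1 (1.65 ± 0.36), Tgfb2 (1.49 ± 0.26), Tgfb3 (1.68 ± 0.34) and Inhba (2.37 ± 0.68), the receptor gene Acvr1 (1.39 ± 0.22) and Smad2 (0.93 ± 0.24) were higher, and Smad3 was lower (-1.54 ± 0.44). The receptor genes Tgfbr1 (-0.38 ± 0.28) and Tgfbr2 (-0.16 ± 0.32) did not pass. Among other transition factors, Foxc1 (2.59 ± 0.36) and Prrx2 (2.66 ± 0.996) were higher and Tbx2 was lower (-2.68 ± 0.50). Snai3 and Foxc2 were not analysed here.

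Of 18 other mesenchymal genes, 13 were higher, 3 lower and 2 not called, with a median of 2.003. Fn1, the fibronectin gene, ran from 96.5 CPM in the F361 peritoneal tumor to 3096 CPM in F318 ROV in libraries 1 to 7 and from 5584 to 13779 CPM in libraries 8 to 11. Cd44 (2.71 ± 0.56), Itga5 (2.70 ± 0.64), S100a4 (3.18 ± 0.75) and Axl (2.01 ± 0.45) were higher as well. The remaining 8 higher were Pdgfrb, a receptor gene of fibroblasts and pericytes, the matrix genes Sparc, Lox and Mmp2, the smooth muscle genes Acta2, Tagln and Cnn1, and Nes, an intermediate filament gene, between 1.62 (Nes) and 2.56 (Cnn1). The 3 lower were Des (-4.60 ± 0.61) and Tpm2 (-2.82 ± 0.40), which skeletal muscle also expresses, and Fap (-2.43 ± 0.76). Pdgfra (0.25 ± 0.79) and Thy1 (0.67 ± 1.22), both fibroblast surface genes, did not pass.

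Among the 12 cadherin and catenin genes tested, Cdh2 and Cdh11 included, 2 were higher, the catenin genes Ctnna1 (1.06 ± 0.32) and Ctnnd1 (1.27 ± 0.30), and 2 lower, Cdh4 (-5.63 ± 1.52) and Jup (-1.57 ± 0.50). Ctnnb1, the gene of beta-catenin, had 0.50 ± 0.23 (edgeR adjusted p = 0.0774). Cdh1 did not pass (-1.84 ± 1.06, adjusted p = 0.154), with means of 0.652 and 1.79 CPM. Of the 9 epithelial markers tested none was higher and 3 were lower, Krt18, Dsp and Elf3. Esrp2, a splicing regulator of epithelial cells, had 0.20 ± 0.76.

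In the organ comparisons none of the genes on these lists was called by edgeR, as none was among all genes. The median log2 fold change of the 18 other mesenchymal genes was 1.03 for uterus minus ovary and -1.16 for tumor minus ovary, against -0.05 and -0.01 over all genes tested. Inside libraries 8 to 11 and 1 to 7 these medians were 0.28 and -0.38. For the 10 transition genes the medians were 0.59 and -1.24, and -0.37 and -0.17 inside the sets. These comparisons share the 7 ovary lines. Cdh3, the P-cadherin gene, was at 3.42 and 0.589 CPM in the splenic and the peritoneal tumor, and in the ovary lines from 0.506 (F364 LOV) to 82.6 CPM (F319 ROV), so its groups overlapped.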

How the data were processed

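The 11 OvTrpMyc cell lines were profiled by poly(A) RNA sequencing with a directional kit, 1 library per line. Reads were aligned to GRCm38 (mm10) with STAR and freed of PCR duplicates with SAMtools RmDup by the authors. The deposited values are raw counts per gene from featureCounts, whole numbers without normalization. Versions of these tools are not given in the sources used here. No pair of lines had identical columns, and none of the columns was left unused.

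CPM is the count divided by the library total, per 1000000. Groups were taken from the sample titles, and the library sets from the numbers in the sample descriptions. Replicate numbers of a group are in accession order and pair nothing, whereas the mouse numbers in the titles pair the lines of 4 mice. Each comparison was fitted over all genes with edgeR 4.0.16 in R 4.3.3 (quasi-likelihood test, TMM scaling, filterByExpr) and Benjamini-Hochberg adjustment over all genes tested, with a threshold of 0.05. DESeq2 1.42.0 was an alternative. All 10 genes passed the filter in each fit. On simulated counts the test recovered 100% of 200 genes changed 8-fold in each of the 3 comparisons, with 8 (uterus against ovary), 5 (tumor against ovary) and 7 (library sets) false calls. The simulated lines were independent, without shared mice or library sets, at a fixed dispersion of 0.05. The changed genes had a mean of at least 5 CPM. This checks the code and does not give the power of the comparisons in the real lines. Levels of different genes were compared only per kb of merged exons (GENCODE M21). Intervals are 95% Wilson intervals for a single library and exact conditional binomial intervals for a ratio of 2 libraries.

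The 10 genes, the gene lists, the cell type markers and the split by library number were chosen with earlier results of these data known. All 10 genes are named, and of each list its counts, the genes called, and the direct partners of the 10 that passed the filter. For the list of other transition factors the counts and 1 result are not reported here. Candidates for likeness had a mean of at least 5 CPM and an SD of at least 0.5 after centring. Alternatives covered the scaling, the tool, the filter, the muscle fiber and Y-linked genes, each line left out, the library sets, and 1 line per mouse. The scaling by library totals alone and the fits with the mouse as a block were added after seeing the data. Promoter windows are from RefSeq on GRCm38.p6, the build of the counts without its patches. Python 3.11.15, numpy 2.4.6, scipy 1.17.1, pandas 2.3.3 and matplotlib 3.10.9 were used.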

Additional observations from a re-analysis of the deposited data

Results flagged for a closer look

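Cdh2 in F339 ROV stood apart from the other ovary lines. It was at 400 CPM, the highest of the 7, against 42.3 to 85.7 CPM in the other 6. On the log2(CPM + 1) scale the gap to the next line made up 0.688 of the whole range, above Dixon's 95% critical value of 0.568 for 7 values, which about 1 in 20 groups pass by chance. F339 ROV also had the highest Snai2, Twist1, Zeb1, Prrx1 and Cdh11 of the ovary lines. Of the 8 endothelial markers, Emcn (154 CPM) and Cdh5 (61.9 CPM) were high in this library. Pecam1 was at 7.84 CPM and Erg at 5.69 CPM, whereas Tie1, Cldn5, Kdr and Tek were at 0.314 to 1.37 CPM. The part of other cells in the levels was not tested.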

How the results depend on the processing

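Between the library sets, 173 of the 190 alternative values for single genes kept their direction and their side of the threshold, and 7 of the 10 genes were called in most fits, with a range of 4 (ovary lines only, where 40.7% of all genes were called) to 8 (library totals alone, 61.5%) outside the fit with the mouse as a block. With that block none of the 10 was called, 3028 of all genes (19%) were, and Cdh2 was at -0.074. The cause was not tested. The direction turned for Zeb1, at 0.28 with library totals alone and -0.28 to 0.14 (without F318 LOV) with 1 line left out. F339 ROV decided the call of Prrx1, and F319 uterus that of Twist2.

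For uterus minus ovary, 1293 genes were called with DESeq2, 2 without a filter on low counts, and 0 to 1 with 1 line left out. Within libraries 8 to 11 and with the library set as a covariate, the values were -0.85 and -0.80 for Snai1, -0.42 and -0.37 for Snai2, -0.71 and -0.66 for Zeb2, -0.32 and -0.27 for Cdh2, and -0.83 and -0.78 for Cdh11. Zeb1 was at -0.013 with RLE size factors and -0.0092 with DESeq2. With 1 line left out the values ran from -0.085 to 0.13 for Zeb1, -0.19 to 0.71 for Zeb2, -0.43 to 0.40 for Prrx1, -1.26 to 1.42 for Cdh2, and -0.69 to 1.35 for Cdh11. The sign turned without F333 uterus for Zeb1, Zeb2, Cdh2 and Cdh11, without F339 ROV for Prrx1, and without F318 LOV for Zeb1.

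For tumor minus ovary, DESeq2 called 260 genes. Within libraries 1 to 7 Twist2 was at 0.22, Prrx1 at 0.50 and Cdh11 at 0.82, and Zeb1 was at -0.20 with library totals alone. With 1 line left out the values ran from -0.069 to 0.14 for Zeb1, -0.82 to 0.17 for Prrx1, and -6.32 to 0.40 for Cdh11. The sign turned without F339 ROV for Prrx1 and Cdh11, without the F361 peritoneal tumor for Cdh11, and without the F326 splenic tumor or F318 LOV for Zeb1. The cause was not tested for any of these. Where 1 line was left in a group, it was assumed to vary like the others. The medians over lines in CPM moved by less than the spread between lines under TMM scaling, without the muscle fiber genes and with 1 value per mouse.

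With the mouse as a block no gene was called in the organ comparisons either, with 1501 (uterus) and 652 (tumor) at an unadjusted p under 0.05. Uterus minus ovary, which then rests on F319, was -0.016 for Zeb1 and 1.94 for Prrx1. Tumor minus ovary, which rests on F326, was 3.47 for Snai1, 2.80 for Snai2, 1.36 for Twist1, 3.73 for Twist2, 1.10 for Prrx1 and 8.29 for Cdh11. Depth limits Twist2 in F326 ROV and F364 ROV, at 2 and 3 counts.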
